A study of Mus musculus with 6 samples.

Results

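The genes described here encode 7 transcription factors of the T helper 1 (Th1) programme, Tbx21, Eomes, Hlx, Runx1, Runx3, Twist1 and Bhlhe40, taken by symbol from a table of read counts for 54532 mouse genes. Each symbol matched 1 entry, and all 7 passed the filter on low counts, which left 14530 genes. The libraries came from CD4+ T cells purified from spleens of C57BL/6 mice and held for 72 h in Th1 conditions. In 3 cultures idelalisib was present and 3 control cultures had no idelalisib, and nothing else in the labels separates the groups. Idelalisib inhibits the delta isoform of phosphoinositide 3-kinase (PI3K), the isoform that T cells use most below the antigen receptor and costimulatory receptors. The sources used here give no dose, stimulus or solvent. They call the replicates biological without saying whether each came from its own mouse, so the p-values speak only of spread among these cultures, some of which may be technical.

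Th1 cells arise when antigen receptor signals combine with interferon gamma and interleukin-12, the last of which acts through STAT4. T-bet, the product of Tbx21, is the T-box factor that opens the Ifng locus and directs the Th1 fate, and Runx3 and the homeobox factor Hlx act with it. Eomes is its close T-box relative, best known from CD8+ T cells and natural killer (NK) cells. Bhlhe40 promotes interferon gamma and restrains interleukin-10 in mouse T cells, whereas Twist1 is induced in repeatedly stimulated Th1 cells and dampens their inflammatory output. PI3K activates AKT, which keeps FOXO factors out of the nucleus.

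With idelalisib, Eomes, Hlx and Twist1 rose, Runx1, Runx3 and Bhlhe40 fell, and Tbx21 did not pass the test. A gene was called at a Benjamini-Hochberg adjusted p under 0.05 in edgeR's quasi-likelihood test over all 14530 genes (3 libraries per group). By this rule 6 of 7 factors were called, 3 higher and 3 lower, against 44.6% of all tested genes (22.2% higher and 22.4% lower). Of all calls 49.7% were thus higher, which became 68.5% with library size as the only scaling, where 3 factors were higher and 2 lower. The same 6 factors had CPM (counts scaled to a common library size) that did not overlap between the groups, as had 54.6% of all tested genes. Among the 859 tested genes that the deposited table assigns to a transcription factor family, 48.8% were called. The median log2 fold change of the 7 factors was 0.02, close to the 0.01 of all tested genes, with a range of -1.13 to 1.69. Fewer cells that express a gene and less of its RNA per cell cannot be told apart in these bulk libraries.

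**Figure D1:**
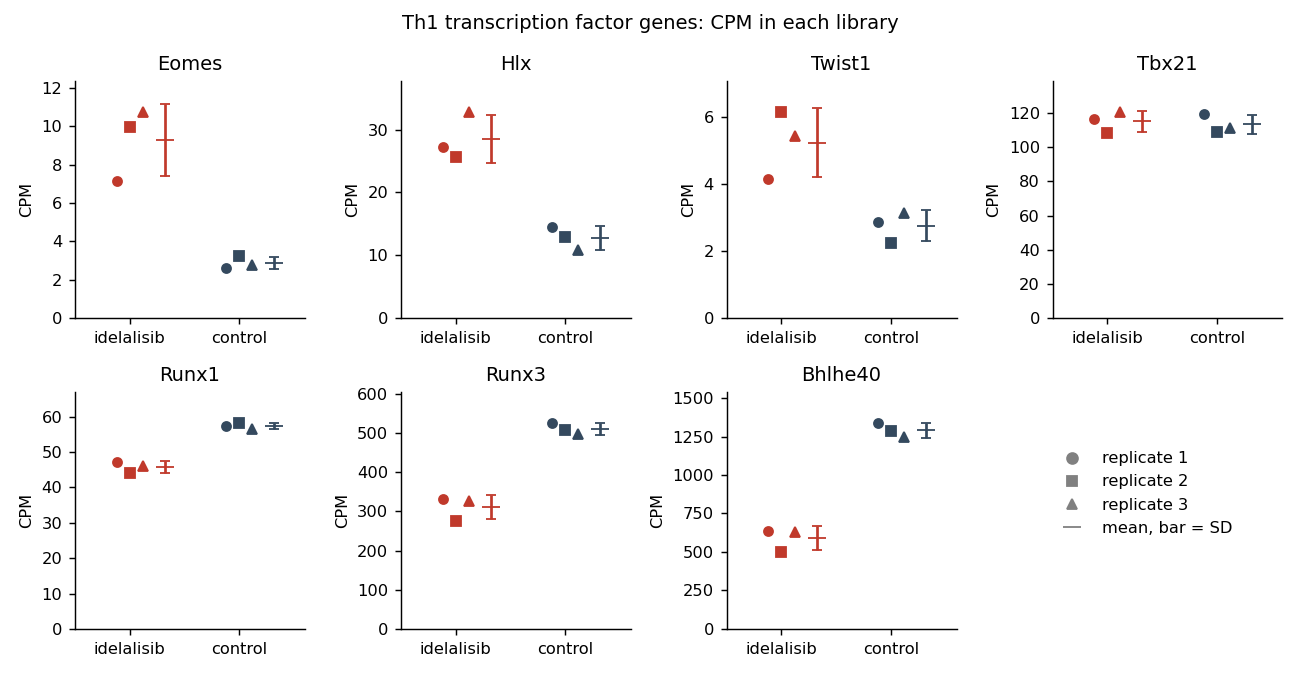
Points show CPM of each gene in each of the 3 idelalisib (left) and 3 control (right) libraries on axes that start at 0; bars show mean ± SD. The groups are separate for every gene but Tbx21, whose idelalisib libraries at 108.5 to 120.6 CPM lie within a similar range to the control libraries at 109.2 to 119.7 CPM.

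Totals ran from 13372318 to 16770452 counts per library. Summed CPM of 6 genes of CD4+ T cells (Cd3d, Cd3e, Cd3g, Cd247, Trac and Cd4) was 1216 to 1414 in idelalisib libraries and 1292 to 1399 in control libraries. All but Cd4 are shared with other T cells, so the sum does not measure the share of CD4+ T cells. Of the 6 genes, Cd3e and Cd3g were called higher (log2 fold changes 0.25 and 0.35, edgeR adjusted p = 0.0171 and 0.00280). Cd4 had lower CPM in every idelalisib library than in any control library, but only just, at 509.6 CPM in idelalisib replicate 1 and 510.0 CPM in control replicate 3. It did not pass (log2 fold change -0.23, edgeR adjusted p = 0.0614). The second principal component separated idelalisib replicate 2 from its group, and that library had the lowest CPM of the 3 idelalisib libraries for 5 of the 7 factors. All 6 calls also held without it. Markers of other cells were counted too. Of 8 B cell markers 5 were higher with idelalisib, the most abundant of them Cd22 at a mean of 4.71 CPM with idelalisib and 2.62 CPM in control libraries. The summed levels of all 8 were 57.9 to 72.8 CPM against 50.6 to 52.4 CPM in control libraries. Most of each sum came from Ighm, which did not pass (edgeR adjusted p = 0.125) and overlapped between the groups. Of 5 granulocyte markers Ly6g and Cxcr2 were higher and Mmp9 did not pass, while the defining S100a8 and S100a9 reached at most 0.21 CPM. The 5 summed to 119.5 to 149 CPM with idelalisib and 48.7 to 51.0 CPM in control libraries. Most of each granulocyte sum came from Ly6g, at 104.2 to 125.9 CPM with idelalisib and 36.8 to 42.0 CPM in control libraries. No myeloid or erythroid marker passed, but only 2 of 11 myeloid and 2 of 5 erythroid markers had enough reads to be tested. The part of such cells in any result was not tested.

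Promoter sequences are shown for Runx3, which fell and whose upstream promoter carries matches to the motif of its own family, and for Tbx21 and Eomes, the T-box pair of which Eomes passed the test and Tbx21 did not. RefSeq's table for GRCm38.p6, the same assembly as the mm10 build of the counts, gave 8 promoter windows for 6 of the 7 genes, and the 250 bases before each start were read. The distal Runx3 window is chr4:135120395-135120644 on the plus strand. The Tbx21 window is chr11:97115332-97115581 on the minus strand and the Eomes window is chr9:118477939-118478188 on the plus strand. All are written 5′ to 3′ and capitals mark motif matches.
Runx3 distal promoter: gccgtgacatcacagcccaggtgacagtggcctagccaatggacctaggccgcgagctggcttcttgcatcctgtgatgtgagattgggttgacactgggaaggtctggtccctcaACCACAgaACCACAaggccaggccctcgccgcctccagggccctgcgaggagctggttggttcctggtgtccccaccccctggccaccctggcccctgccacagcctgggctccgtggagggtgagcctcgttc
Tbx21 promoter: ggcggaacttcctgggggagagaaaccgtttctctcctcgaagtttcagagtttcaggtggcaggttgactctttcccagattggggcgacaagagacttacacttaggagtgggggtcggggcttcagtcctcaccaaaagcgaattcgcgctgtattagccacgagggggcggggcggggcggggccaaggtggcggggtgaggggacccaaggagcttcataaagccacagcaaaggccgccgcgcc
Eomes promoter: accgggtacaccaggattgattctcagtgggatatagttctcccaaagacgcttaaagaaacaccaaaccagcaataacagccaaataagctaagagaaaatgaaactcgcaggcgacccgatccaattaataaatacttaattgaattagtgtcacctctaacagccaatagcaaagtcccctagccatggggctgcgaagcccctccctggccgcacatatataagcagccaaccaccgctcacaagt

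On both strands, 5 motifs were searched: the T-box element AGGTGTGA, the RUNX element TGTGGT, the E-box CACGTG, the FOXO element GTAAACA and the STAT element TTCNNNGAA. The distal Runx3 window held 2 RUNX matches on the reverse strand, read as ACCACA in the printed line, at 134 to 129 and 126 to 121 bases before the start. The distal Runx1 window held 1 E-box, at 71 to 66 bases before its start. The other 6 windows, those of Tbx21, Eomes, Hlx and Twist1 and the proximal ones of Runx1 and Runx3, held none of these letters. Of all 32851 windows of this length, 14.0% held the RUNX element, 6.02% the E-box, 1.12% the T-box element, 3.17% the FOXO element and 7.02% the STAT element. A match describes letters in a window and says nothing about binding.

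Tbx21 (ENSMUSG00000001444, chromosome 11, 97098071 to 97115331, minus strand) had 117, 108 and 121 CPM in idelalisib replicates 1 to 3, against 120, 109 and 111 CPM in control replicates 1 to 3. The groups overlapped (0.02 ± 0.08 SE on the log2 scale, edgeR adjusted p = 0.837). In size of change it ranked 830 of 859 tested transcription factor genes. It passed the test in none of 15 alternative fits, where its log2 fold change lay between -0.01 and 0.18. The upper end came from scaling by library size alone (edgeR adjusted p = 0.0871). In TPM, the length-scaled level, which carries no TMM factor, Tbx21 stood at 165, 153 and 163 in idelalisib libraries and at 147, 131 and 135 in control libraries, without overlap, so its small difference depends on the scaling.

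Eomes (ENSMUSG00000032446, chromosome 9, 118478212 to 118486132, plus strand) had the largest rise of the 7. It was at 7.18, 9.98 and 10.8 CPM in idelalisib libraries (109, 141 and 180 reads), against 2.63, 3.24 and 2.79 CPM in control libraries (42, 49 and 39 reads). Every idelalisib library was above every control library, and idelalisib replicate 1 was the lowest of its group. The rise was 3.22-fold (1.69 ± 0.21 SE on the log2 scale, edgeR adjusted p = 2.95e-05). By size of change Eomes ranked 20 of the 859 transcription factor genes, although by TPM level it ranked only 579 in idelalisib and 726 in control libraries.

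NK cells, CD8+ T cells and gamma delta T cells can also express Eomes. Of 7 NK cell markers 4 were tested and Klrk1 alone was called higher with idelalisib, beside 22.2% of all tested genes. Klre1, Klrc2 and Gzma did not pass, at -0.27, 0.48 and 0.25 on the log2 scale. Ncr1 had no read in any library and Klrb1c reached at most 0.21 CPM. The summed level of the 7 was 26.7 to 31.0 CPM in idelalisib and 21.3 to 25.7 CPM in control libraries. Of the CD8 genes, Cd8a passed the test as higher although the groups overlapped (log2 fold change 0.91, edgeR adjusted p = 0.0360, up to 0.189 in alternatives) and Cd8b1 did not. The pair summed to 7.24 to 9.50 CPM with idelalisib and 4.43 to 7.86 CPM in control libraries. Of 4 gamma delta T cell genes, Tcrg-C1 and Tcrg-C2 were higher, beside 22.2% of all tested genes, and Trdv4 was at 0 in all libraries. The most abundant of the 4, Trdc, overlapped between the groups and did not pass (log2 fold change 0.14, edgeR adjusted p = 0.598). Their summed level was 9.15 to 12.8 CPM with idelalisib against 6.93 to 8.65 CPM in control libraries. The part of such cells in the Eomes result was not tested.

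Within each library the ratio of Eomes to Tbx21 was taken per length, which does not depend on library scaling. Its log2 value was -4.76, -4.18 and -4.23 in idelalisib libraries and -6.25, -5.82 and -6.06 in control libraries. Tbx21 thus exceeded Eomes 21.0-fold with idelalisib and 65.9-fold without (geometric means). The ratio was higher by 1.65 on the log2 scale in idelalisib libraries (exact two-sided permutation p = 0.1, the smallest that 3 against 3 libraries allow).

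Other T-box genes were scarce. Of 15 further family members 2 were tested, and both fell: Tbx6, a mesoderm regulator, by 1.26 on the log2 scale (edgeR adjusted p = 0.000284) and Mga, a MAX-binding repressor with a T-box, by 0.50 (edgeR adjusted p = 0.000865). Eomes was the only one of 4 tested T-box genes called higher. Over all tested genes 22.2% were called higher and 22.4% lower.

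Hlx (ENSMUSG00000039377, chromosome 1, 184727140 to 184732619, minus strand) encodes the homeobox partner of T-bet. Its CPM was 27.3, 25.6 and 32.8 in idelalisib libraries, against 14.6, 12.9 and 10.8 in control libraries. The lowest idelalisib library was well above the highest control library. The rise was 2.23-fold (1.16 ± 0.14 SE on the log2 scale, edgeR adjusted p = 2.11e-05). By TPM level Hlx ranked 195 among transcription factor genes in idelalisib libraries and 368 in control libraries. Of 28 tested homeobox genes, 7 were called higher and 4 lower, with a median log2 fold change of 0.03, and Hlx had the largest rise. The shares over all tested genes were 22.2% higher and 22.4% lower.

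Twist1 (ENSMUSG00000035799, chromosome 12, 33957671 to 33959829, plus strand), the basic helix-loop-helix (bHLH) restrainer of Th1 inflammation, was counted in 63, 87 and 91 reads in idelalisib libraries and in 46, 34 and 44 reads in control libraries, or 4.15, 6.16 and 5.43 against 2.88, 2.25 and 3.15 CPM. The groups did not overlap, and idelalisib replicate 1 and control replicate 3 lay nearest to each other. The rise was 1.90-fold (0.93 ± 0.24 SE on the log2 scale, edgeR adjusted p = 0.00590), and its adjusted p stayed at or below 0.0324 in the 15 alternatives.

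Bhlhe40 (ENSMUSG00000030103, chromosome 6, 108660629 to 108666925, plus strand) was the most abundant of the 7 by TPM and had their largest fall. It had 638, 500 and 630 CPM in idelalisib libraries, against 1340, 1284 and 1247 CPM in control libraries. All idelalisib libraries were far below the control libraries, and idelalisib replicate 2 was the lowest. The level in control libraries was 2.19-fold that with idelalisib (-1.13 ± 0.10 SE on the log2 scale, edgeR adjusted p = 8.20e-07). Even so, by TPM it ranked 4 of 859 transcription factor genes in idelalisib libraries and 3 in control libraries.

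Runx3 (ENSMUSG00000070691, chromosome 4, 135120652 to 135177990, plus strand), the RUNX factor that joins T-bet at Ifng and at the Il4 silencer, fell as well. It had 332, 276 and 327 CPM in idelalisib libraries and 527, 507 and 498 CPM in control libraries. No library of one group reached the other, and the level in control libraries was 1.64-fold that with idelalisib (-0.71 ± 0.09 SE on the log2 scale, edgeR adjusted p = 1.82e-05). Inside the gene, between the distal and proximal promoters and clear of annotated Runx3 exons, lies the antisense gene Gm16224 (135143421 to 135144285, minus strand). It was counted in 72, 60 and 55 reads in idelalisib libraries and in 199, 172 and 186 reads in control libraries (-1.60 ± 0.18 SE on the log2 scale, edgeR adjusted p = 1.17e-05). The groups did not overlap. The strand setting of the counting is not given in the sources used here, so reads of Gm16224 and of unspliced Runx3 RNA cannot be told apart.

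Runx1 (ENSMUSG00000022952, chromosome 16, 92601466 to 92826149, minus strand), a RUNX factor of T cell development that is also active in mature helper cells, had the smallest called change. Its CPM was 47.3, 44.0 and 46.2 in idelalisib libraries and 57.4, 58.3 and 56.5 in control libraries. The groups did not overlap, and the spread within each was narrow (-0.32 ± 0.08 SE on the log2 scale, edgeR adjusted p = 0.00590). With library size as the only scaling it missed the threshold, at -0.17 on the log2 scale (edgeR adjusted p = 0.106). That scaling also moved the median of all genes to 0.16.

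All 3 Runt family genes in the table were called lower, against 22.4% of all tested genes. Of the 3, Runx2, the skeletal RUNX factor and no member of the 7, had the largest log2 fold change. Runx2 had 38.8, 23.2 and 27.2 CPM in idelalisib libraries, against 64.7, 64.7 and 57.2 CPM in control libraries (-1.06 ± 0.16 SE on the log2 scale, edgeR adjusted p = 0.000216). The log2 ratio of Runx1 to Runx3 per length was -4.07, -3.91 and -4.09 in idelalisib libraries and -4.46, -4.39 and -4.40 in control libraries. It was 0.39 higher with idelalisib, without overlap (exact two-sided permutation p = 0.1, the smallest possible). Their shared DNA-binding partner Cbfb, which stabilises RUNX proteins on DNA, had 123, 132 and 118 CPM in idelalisib and 108, 111 and 109 CPM in control libraries. Its log2 fold change of 0.18 did not pass (edgeR adjusted p = 0.0764). It passed in 3 of 15 alternatives, with upper-quartile scaling, with library size alone and without idelalisib replicate 3 (adjusted p = 0.0370, 0.00338 and 0.0244).

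**Figure D2:**
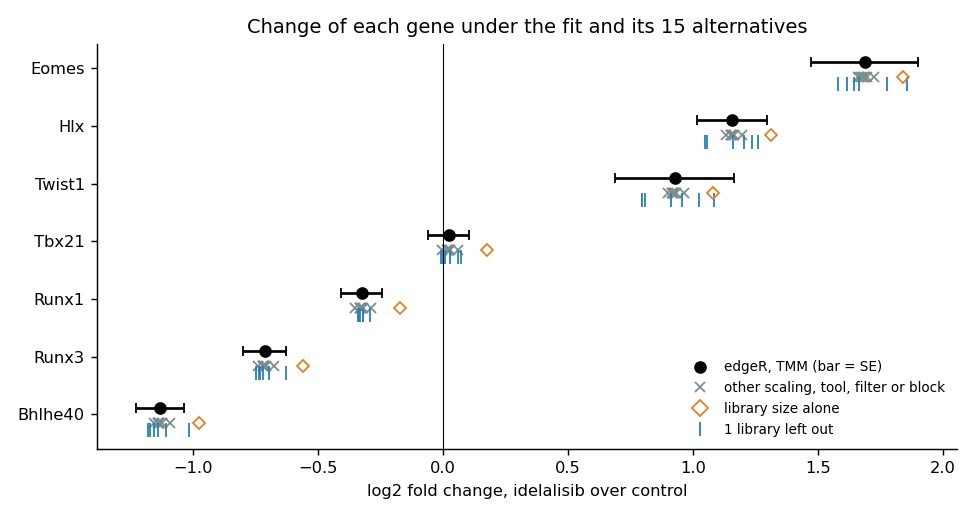
Log2 fold change of idelalisib over control for each gene: black points with SE bars are edgeR values with TMM scaling, and smaller marks are the 15 alternative fits. Library size alone shifts every gene upward, by about as much as the median of all genes at 0.16; Eomes, Hlx and Twist1 stay above 0, Runx1, Runx3 and Bhlhe40 below it, and Tbx21 near 0.

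Per length, the order of levels was Bhlhe40, Runx3, Tbx21, Hlx, Runx1, Twist1 and Eomes in both groups. Mean TPM in that order was 433.3, 215, 160.2, 43.3, 13.2, 11.2 and 7.73 in idelalisib libraries. In control libraries it was 828, 308, 138, 16.9, 14.4, 5.11 and 2.09. Neighbours in the order had separate ranges except Runx1 and Twist1 in idelalisib libraries (12.8 to 13.9 and 8.98 to 13.3 TPM) and Hlx and Runx1 in control libraries (14.3 to 19.5 and 14.2 to 14.5 TPM). Runx1 is divided by a length of 12025 bases, which covers several transcripts, so its TPM may understate the level of any single one. The span between the most and the least abundant factor was narrower with idelalisib, since the top of the order fell and the bottom rose.

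**Figure D3:**
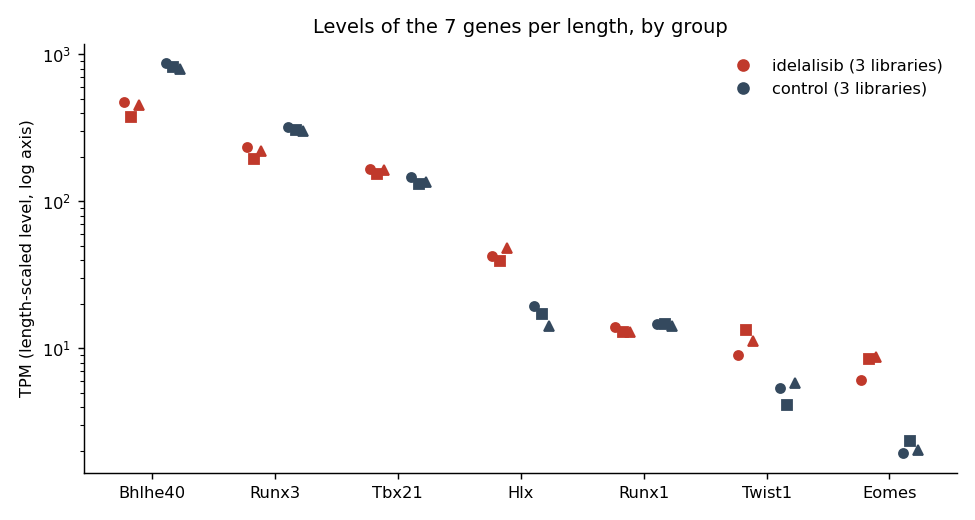
Length-scaled level (TPM, log axis) of each gene in the 3 idelalisib (left of each pair) and 3 control libraries, ordered by the control mean. Bhlhe40 and Runx3 are lower with idelalisib, Hlx, Twist1 and Eomes are higher, and the order of the means is the same in both groups.

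The receptors, messengers and inhibitors of the signals that induce these factors were called in both directions, as were all tested genes (22.2% higher and 22.4% lower). Of 16 genes of Th1-inducing cytokine signalling, 5 were called higher and 4 lower (median log2 fold change 0.06, against 0.01 over all tested genes), and with library size alone 8 were higher. The largest called changes were in the interleukin-18 receptor chain Il18rap at -0.91 and the signalling inhibitors Socs3 and Socs1 at 0.73 and 0.72 on the log2 scale. The call of Il18rap was lost with a replicate block (adjusted p = 0.0626) and without idelalisib replicate 3 (adjusted p = 0.0644). Stat4, which carries the interleukin-12 signal, fell without overlap between the groups. It had 42.2, 48.3 and 45.4 CPM in idelalisib and 63.8, 70.9 and 64.6 CPM in control libraries (-0.55 ± 0.09 SE on the log2 scale, edgeR adjusted p = 0.000229). The interleukin-12 receptor chain Il12rb2, which T-bet sustains, overlapped between the groups (log2 fold change 0.09, edgeR adjusted p = 0.414), and passed only with library size alone (0.25, adjusted p = 0.0306).

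Effector genes that lie downstream of these factors also held calls in both directions, as did all tested genes (22.2% higher and 22.4% lower). Of 20 Th1 effector and homing genes 18 were tested, 7 were called higher and 5 lower (median log2 fold change 0.14). Ifng, the defining Th1 cytokine gene, was set against Tbx21 per length. The log2 ratio was 1.37, 1.20 and 1.28 in idelalisib libraries and 2.62, 2.88 and 2.64 in control libraries, a difference of -1.43 (exact two-sided permutation p = 0.1, the smallest possible). Cxcr3, a chemokine receptor gene that T-bet activates directly, had 16.3, 14.6 and 17.5 CPM in idelalisib and 6.76, 6.08 and 6.58 CPM in control libraries (1.32 ± 0.15 SE on the log2 scale, edgeR adjusted p = 9.49e-06). The largest called changes of the list were in the chemokine Ccl5 at 2.64, the surface antigen Ly6c2 at 2.48 and the death ligand Fasl at -2.20 on the log2 scale. The cytotoxic genes Gzmb and Prf1, targets of Eomes and Runx3 in CD8+ T cells, did not pass, at -0.14 and 0.26 on the log2 scale (edgeR adjusted p = 0.205 and 0.123).

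**Figure D4:**
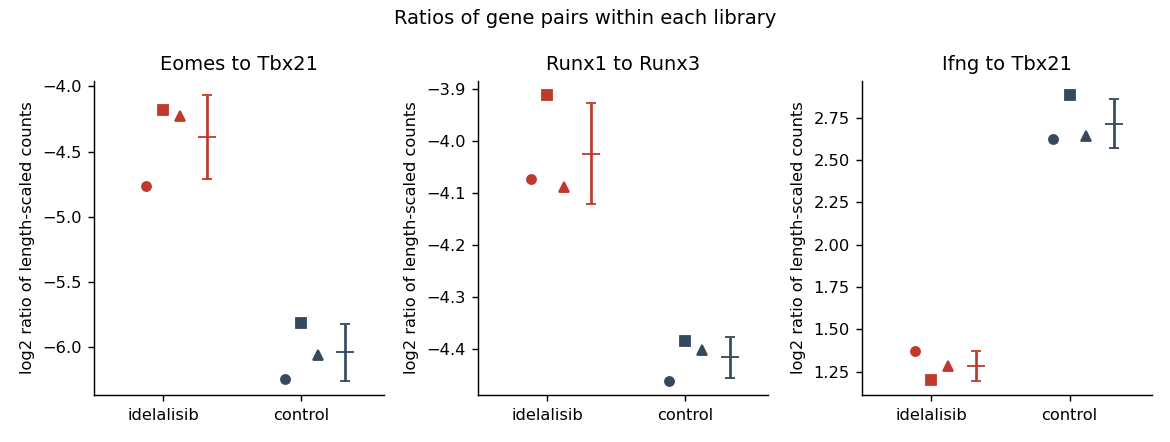
Log2 ratio of length-scaled counts within each library for 3 gene pairs, idelalisib left and control right, with mean ± SD; axes do not start at 0. In each pair the groups are separate: Eomes to Tbx21 and Runx1 to Runx3 are higher with idelalisib, by 1.65 and 0.39, and Ifng to Tbx21 is lower, with a difference of -1.43.

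Among 11 RUNX partners, corepressors and the opposing factor ThPOK, 9 were tested, 1 was called higher and 3 lower (median log2 fold change -0.17). These counts became 2 higher and 1 lower with library size alone. The share called over all tested genes was 44.6% with TMM scaling. Beside Runx2, the corepressor genes Tle3 and Tle1 had the largest called changes, at 0.56 and -0.50. Tle1 lost its call without idelalisib replicate 1 (adjusted p = 0.0582) and with library size alone (adjusted p = 0.0513). Zbtb7b, which encodes ThPOK, the factor that holds Runx3 down in CD4+ T cells, overlapped between the groups (log2 fold change -0.16, edgeR adjusted p = 0.165). Of 10 genes with known RUNX-bound elements 9 were tested, 3 were called higher and 1 lower (median 0.08), beside the same 44.6% over all tested genes. Il4, which Runx3 and T-bet silence in Th1 cells, had 4.81, 3.26 and 5.32 CPM in idelalisib and 1.13, 1.72 and 1.29 CPM in control libraries (1.70 ± 0.29 SE on the log2 scale, edgeR adjusted p = 0.000317). Il2 was at 13.4, 41.8 and 17.7 CPM in idelalisib libraries and 3.50, 2.71 and 2.86 CPM in control libraries, with idelalisib replicate 2 far above the other idelalisib libraries (3.00 ± 0.54 SE on the log2 scale, edgeR adjusted p = 0.00778). Without that library the log2 fold change of Il2 was 2.37. Over the 15 alternatives, which include other tools than edgeR, the adjusted p of Il2 ran from 5.21e-10 to 0.0445. Il2 overlaps the end of Adad1 on the other strand, and reads of the pair cannot be told apart there.

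Of 11 bHLH partners and relatives 9 were tested, with 3 higher and 3 lower (median log2 fold change -0.29), and with library size alone 0 were lower. Over all tested genes 22.2% were called higher and 22.4% lower. Id2 and Id3, inhibitors that take up E proteins, rose by 0.57 and 0.50, as did the E protein gene Tcf3 by 0.34. Another E protein gene, Tcf4, fell by 0.37 (edgeR adjusted p = 0.0156) and lost its call in 5 of 15 alternatives, with adjusted p up to 0.133. Bhlhe41, the closest relative of Bhlhe40, and Twist2 were too low to test. Among 45 tested bHLH genes 9 were called higher and 15 lower (median -0.18). Of 7 genes reported downstream of Bhlhe40 in T cells 6 were tested, with 2 higher, 1 lower and 3 that did not pass (median 0.03). Il10, which Bhlhe40 restrains, had 20.9, 17.3 and 22.6 CPM in idelalisib and 14.1, 13.3 and 14.2 CPM in control libraries (0.55 ± 0.13 SE on the log2 scale, edgeR adjusted p = 0.00412). The nuclear receptor gene Pparg rose by 1.96 on the log2 scale (edgeR adjusted p = 0.000426). It had few reads, at 36, 45 and 76 in idelalisib and 14, 16 and 9 in control libraries. Ifng was the gene that fell (-1.41 ± 0.09 SE, edgeR adjusted p = 9.25e-08).

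Among 16 regulators of other helper and memory fates, 5 were called higher and 6 lower (median log2 fold change 0.04), and with library size alone 8 were higher. Over all tested genes 22.2% were called higher and 22.4% lower. The genes that fell included the follicular helper factor gene Bcl6 at -1.84 and the aryl hydrocarbon receptor gene Ahr at -1.34 on the log2 scale. Gata3, the Th2 factor gene that Runx1 and T-bet oppose, had 8.03, 6.37 and 6.87 CPM in idelalisib and 7.76, 6.61 and 7.58 CPM in control libraries, which overlapped (edgeR adjusted p = 0.855). Pik3cd, which encodes the drug's target, had a log2 fold change of -0.19 (edgeR adjusted p = 0.0820). Of 15 alternatives it passed only among protein-coding genes alone and without idelalisib replicate 3 (adjusted p = 0.0432 and 0.0184). With library size alone its log2 fold change was -0.03 (edgeR adjusted p = 0.759).

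**Figure D5:**
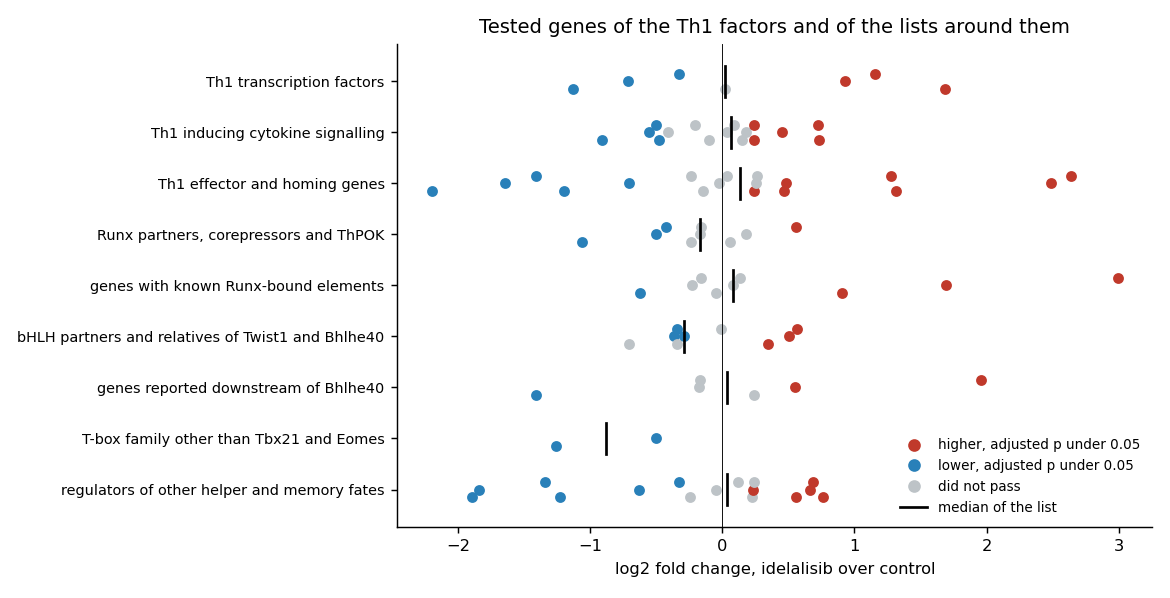
Log2 fold change of idelalisib over control for every tested gene of the 7 Th1 factors (top row) and of 8 surrounding lists; red genes were called higher, blue lower, grey did not pass, and black lines are list medians. Each list except the T-box family, where only Tbx6 and Mga were tested, holds calls in both directions with TMM scaling. So do all tested genes, with 22.2% called higher and 22.4% lower.

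For each called factor, the 3 most similar genes were found by the root mean square distance between log2 CPM profiles over the 6 libraries, each centred on its own mean, among genes averaging at least 10 CPM. Nearest to Eomes were Cpt2, Irgm1 and Tgtp1, at distances of 0.142, 0.151 and 0.161 on the log2 scale. Hlx was nearest to Uba7, Pcx and Ly6a, at 0.0737, 0.110 and 0.112. The genes nearest to Twist1 were Ccne1, Marcksl1 and Rpa2, at 0.0524, 0.0873 and 0.117. Bhlhe40 was followed most closely by Acp6, Ero1l and Tbc1d17, at 0.0326, 0.0473 and 0.0506. Mapkbp1, Ptpn23 and Plekha2 lay 0.0325, 0.0340 and 0.0367 from Runx3. Arpc2, Lamc1 and Rmc1 lay 0.0247, 0.0247 and 0.0257 from Runx1. With 2 groups this measure mainly matches the size and direction of the group difference.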

How the data were processed

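Poly(A) RNA libraries of 3 idelalisib and 3 control cultures were compared, grouped and numbered by their titles. The deposited table gives raw read counts, with library names as column headers. Gene length in bases is as given in the deposited table. Per the submitters' processing notes, the tools were featureCounts 1.5.0-p3, HISAT2 2.0.5 and fastp, and the build mm10. How strand and multimapping reads were handled, and the annotation release, are not stated there. Libraries of 1 group differed beyond counting noise (chi-square per degree of freedom 4.97 to 20.1).

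Counts were filtered with filterByExpr (minimum count 10, minimum total 15), TMM-scaled and put through the robust quasi-likelihood test of edgeR 4.0.16 (R 4.3.3; group as the only term), with Benjamini-Hochberg adjustment over all 14530 tested genes. CPM use TMM-scaled library sizes, and TPM were computed from counts and gene lengths. Each standard error is the log2 fold change divided by the root of its F. Single ratios were compared with exact two-sided permutation tests. The procedure was tested on simulated data. Alternatives were RLE, upper-quartile and library-size scaling, DESeq2 1.42.0, limma-voom (limma 3.58.1), other count filters, protein-coding genes alone, an adjusted p under 0.01, a replicate block and leaving out each library.

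The 7 members and the lists were chosen with earlier results of these data known. Named are the members, per list the 3 strongest called genes of 1 CPM or more on average, 11 genes of Th1 biology regardless of outcome, and the nearest profiles. Some genes that this rule names are not reported here. Others were chosen after their values were seen: Runx2's place in its family, Gm16224, Gzmb, Prf1, Cd8b1, Bhlhe41, Twist2 and Tcf3. Marker genes come from a list per cell type, and not all of them are particular to that type.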

Additional observations from a re-analysis of the deposited data

How the results depend on the processing

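Of the 7 factors, 3 were called higher and 3 lower in every alternative fit except scaling by library size alone, where 2 were lower and Runx1 was lost. Tbx21 changed sign without passing, to -0.0028 (adjusted p = 0.981) among protein-coding genes alone and to -0.0071 without control replicate 2. Over the 6 fits that each left out 1 library it lay between -0.0071 and 0.072. Gata3, also uncalled, turned to 0.11 with library size alone and to 0.032 without idelalisib replicate 2, with a low of -0.13 without idelalisib replicate 1. The cause was not tested. An adjusted p under 0.01 left 2138 genes higher of 3223, with the same counts of factors. Library size alone made 68.5% of all calls higher ones, where TMM gave 49.7%, and counted 8 higher genes of Th1-inducing cytokine signalling, 2 higher and 1 lower of the RUNX partners, 0 lower of the bHLH relatives and 8 higher regulators of other fates. Deviations of same-numbered libraries correlated at 0.0886, -0.139 and -0.124, and those of differently numbered ones at -0.142 to 0.225. Such weak values from 3 libraries per group cannot settle whether the replicate numbers pair the libraries. With a replicate block 2910 genes were higher and 3051 lower, and Il18rap and Cd8a were among the genes that lost their calls (adjusted p = 0.0626 and 0.0573). The block left each ratio's difference as it was, at an exact p = 0.25, the smallest that 3 pairs allow. Eomes and Twist1 rest on fewer than 200 reads per library, which limits the precision of their folds.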

Other observations

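Noncoding neighbours within reach of the 7 genes were also counted, and were chosen after their values were seen. Gm17055, a noncoding transcript that ends 1092 bases upstream of Bhlhe40 on the same strand, had 60, 41 and 25 reads in idelalisib libraries and 19, 24 and 16 reads in control libraries, a log2 fold change of 1.08 (edgeR adjusted p = 0.0276), although the groups overlapped in CPM. Gm16225, which lies 205 bases upstream of Runx3 on the opposite strand, had 18, 9 and 23 reads in idelalisib and 24, 18 and 19 reads in control libraries. Antisense genes that share annotated exon bases with Eomes (Gm33460), Runx1 (Gm26626) and Bhlhe40 (0610040F04Rik) had at most 15 reads in any library.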
